A study of Mus musculus with 4 samples.

Results

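Fatty acid and cholesterol synthesis is represented by 8 enzyme genes: Acaca, Fasn, Scd1 and Scd2 for fatty acids, and Hmgcs1, Idi1, Fdps and Sqle for cholesterol. They were taken by name, from a list of lipid synthesis enzymes, and matched to the gene symbols of the array. Among the 13410 genes with a probe were 7 of the 8; a probe for Hmgcs1 was not analysed here. Values were present for 6 of them, and 5 could be tested among 8384 genes with a value on at least 3 arrays. Idi1 had a probe with no value on any array, and Acaca had values in only 2 mice, too few to test.

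RNA came from whole lungs of 4 mice of the inbred strain A/J that had received bleomycin, a DNA-damaging drug that injures the lung. For every treated mouse a separate 2-colour array paired its RNA with a pool of lung RNA from control A/J mice, the same pool each time, and all RNA was amplified. The question is how bleomycin-treated lungs differ in expression from control lungs. The sources used here give neither the number of control mice pooled nor the age and sex of the mice, nor the dose, route and time of bleomycin.

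A value is the log ratio of the 2 RNAs at a probe, read as log2 and centred on the median of its array. Which RNA is on top of the ratio is not stated. If it is the treated mouse, values above 0 mean more RNA of a gene in treated lungs; if it is the pool, every sign below turns and sizes and p-values stay. With a natural logarithm every log2 size would be 1.44 times larger. The spots with a value numbered 9427 to 12136 per array. Arrays of mice 1 and 2 correlated at 0.73 over spots and those of mice 3 and 4 at 0.86, against 0.45 to 0.57 for the other pairs, so the 4 arrays may not be fully independent. The labels do not say whether mice were treated or processed together. The single pool leaves out the spread between control mice, and the number of arrays limits the precision. In whole lung, more cells of a type and more RNA per cell cannot be told apart.

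Cells build fatty acids from acetyl-CoA: acetyl-CoA carboxylase makes malonyl-CoA, fatty acid synthase joins these units into palmitate, and stearoyl-CoA desaturases place a double bond in saturated chains. Cholesterol starts from the same acetyl-CoA and runs through HMG-CoA, isopentenyl and farnesyl diphosphate and squalene. Many enzymes of both routes are switched on by the SREBP transcription factors, which bind sterol regulatory elements together with the factors NF-Y and Sp1. In the lung, alveolar type II cells use fatty acids for the phospholipids of surfactant.

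The promoter of Fasn is shown because Fasn was the single tested member with a window in the RefSeq promoter table used here, which matched 4 of the 8 genes. It spans 250 bases before to 50 after the gene's start, at chr11:120824498-120824797 on the minus strand of GRCm38.p6, written 5′ to 3′ along the gene. Capitals mark the NF-Y box, CCAAT, on either strand.

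Fasn: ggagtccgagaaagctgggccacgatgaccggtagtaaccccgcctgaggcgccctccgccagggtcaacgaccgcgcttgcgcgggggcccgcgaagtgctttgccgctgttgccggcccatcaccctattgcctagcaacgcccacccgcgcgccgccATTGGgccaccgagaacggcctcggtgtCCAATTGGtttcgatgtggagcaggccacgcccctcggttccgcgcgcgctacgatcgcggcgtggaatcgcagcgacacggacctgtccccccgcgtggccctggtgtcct

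The box occurred 3 times, with first bases at positions -90, -62 and -59 from the start, the latter pair overlapping on opposite strands. It is common, being present in 37.4% of all 32851 windows. The looser sterol regulatory element TCACNCCAC, found in 1.24% of windows on either strand, was not matched in the Fasn window, nor were the sterol regulatory element in its full form (0.0913% of windows), the Sp1 box GGGCGG (35.7%) or the E-box CACGTG (7.15%). Of the 4 genes with a window, CCAAT was present in Fasn, Hmgcs1 and Idi1 and the looser sterol element in Hmgcs1 alone, at position -137. The Sp1 box was present in Hmgcs1 and Idi1, and in 56.1% of the windows of genes tested. Acaca held none of these letters. These are matches of letters and were not tested as binding sites.

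Of the 5 tested genes only the desaturase gene Scd2 passed the test, above 0 (limma, Benjamini-Hochberg adjusted p at most 0.05 over all genes). Over all genes 12.5% passed, 7.69% above 0 and 4.81% below, so 1 of 5 is too small a count to set the genes apart from the rest. Scd2 was also the only tested member whose values all lay on the same side of 0, which held for 46.7% of all genes.

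Scd2 encodes a stearoyl-CoA desaturase with a broad tissue distribution. Its centred log2 ratios were 1.05, 1.31, 1.55 and 0.94 in mice 1 to 4. All 4 lay far above 0, and the spread between mice was small against their mean. The mean was 1.21 ± 0.27 (SD, n = 4), a 2.31-fold difference with a 95% interval of 1.90 to 2.82-fold (limma, adjusted p = 0.00747). By size of the mean Scd2 ranked 43 of 8384 genes from the top, and only 1.27%, 0.484%, 0.718% and 2.19% of genes had a higher value on the arrays of mice 1, 2, 3 and 4.

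Scd1, the other desaturase gene with enough values, is the main form in liver and fat. Its log2 ratios were -0.08, 0.55, 0.06 and -0.14 in mice 1 to 4, so mouse 2 stood above the others and the values fell on both sides of 0. The mean of 0.10 ± 0.31 (SD, n = 4) did not pass (limma, adjusted p = 0.638), with a 95% interval on the log2 scale of -0.22 to 0.41. The Scd2 ratio was higher than the Scd1 ratio on all 4 arrays, by 1.13, 0.76, 1.49 and 1.08. That difference averaged 1.11 ± 0.30 (SD, n = 4; exact two-sided permutation p = 0.125, the smallest that 4 arrays allow). Probe sequences were not used here, and how well each probe separates these related genes was not tested. Scd3, a further desaturase gene, had 1 value, -0.13 in mouse 1.

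Fasn encodes fatty acid synthase. Its log2 ratios were 0.57, 0.80 and 0.73 in mice 2, 3 and 4 but -0.19 in mouse 1, the only array below 0. The mean of 0.48 ± 0.45 (SD, n = 4) did not pass over all genes (limma, adjusted p = 0.127), and its 95% interval ran from 0.05 to 0.91. Without mouse 1 the mean was 0.70 ± 0.12 (SD, n = 3) and passed (limma, adjusted p = 0.0363). With another mouse left out the limma adjusted p reached 0.291, and Fasn did not pass in 14 of 16 other settings. Acaca encodes acetyl-CoA carboxylase, the enzyme before fatty acid synthase, and had 0.23 in mouse 2 and 0.20 in mouse 3, both above 0.

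**Figure D1:**
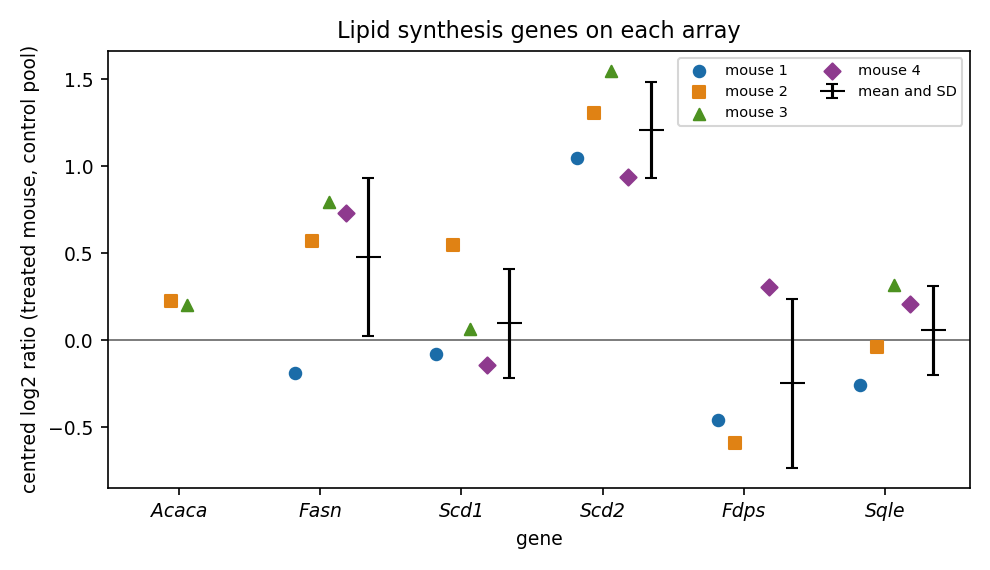
Centred log2 ratio (vertical axis) of the 6 genes with a value, with a symbol for each mouse and, for the 5 tested genes, a black bar for the mean and SD over mice. Scd2 lies between 0.94 and 1.55 on every array, whereas each of the other tested genes has values on both sides of 0.

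Sqle and Fdps, the cholesterol enzymes with enough values, did not pass. Sqle encodes squalene epoxidase, a rate-limiting step of the late pathway. It had log2 ratios of -0.26 and -0.04 in mice 1 and 2 and of 0.32 and 0.21 in mice 3 and 4. The signs thus differed between the mice, and the mean was 0.06 ± 0.26 (SD, n = 4; limma, adjusted p = 0.760), with a 95% interval of -0.21 to 0.33. Fdps encodes farnesyl diphosphate synthase, whose product feeds cholesterol and the isoprenoid branches. Its ratios were -0.46 in mouse 1, -0.59 in mouse 2 and 0.31 in mouse 4, with no value in mouse 3. The mean of -0.25 ± 0.49 (SD, n = 3) did not pass (limma, adjusted p = 0.436). Its 95% interval of -0.76 to 0.26 left room for a moderate difference below 0 and a smaller one above it. Both genes were lower in mice 1 and 2 than in mouse 4.

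**Figure D2:**
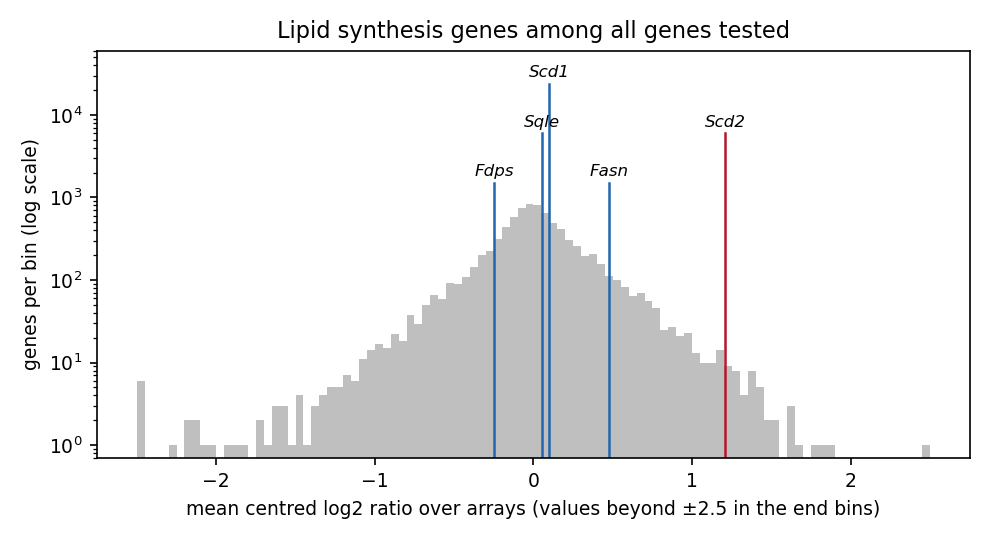
Histogram of the mean centred log2 ratio of all 8384 genes tested, with genes per bin on a log scale and a line at each of the 5 tested lipid synthesis genes, red where the gene passed. Scd2 at 1.21 stands in the upper tail, Fasn at 0.48 on the upper flank, and Scd1, Sqle and Fdps near the centre.

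No tested gene of the wider cholesterol route passed the test. Of 20 genes listed, 13 could be tested, Sqle and Fdps among them. Of these, 0 passed limma, against 12.5% of all genes. An unadjusted limma p under 0.05 was found for 2 of the 13, against 2664 of all 8384 genes. With 13 genes tested, the counts are too small to set the route apart from the rest. Msmo1, a sterol methyl oxidase gene, had values from 0.10 to 0.49, all above 0, with a mean of 0.26 ± 0.17 (SD, n = 4; limma, adjusted p = 0.107). Sc5d, a sterol desaturase gene, had values from -0.23 to -0.06, all below 0, with a mean of -0.16 ± 0.07 (SD, n = 4; limma, adjusted p = 0.151). Tm7sf2, which encodes a sterol reductase, had a mean of -0.27 ± 0.29 (SD, n = 3) and Nsdhl, a sterol dehydrogenase gene, of -0.17 ± 0.24 (SD, n = 4).

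The arrays differed in where these 13 genes lay. In mouse 1, 12 of 13 were below 0 and in mouse 2, 9 of 12, whereas in mice 3 and 4 it was 4 of 12 and 3 of 12. The medians were -0.22, -0.16, 0.06 and 0.03 in mice 1 to 4, while those of all tested genes were between -0.001 and 0.012. A difference between the mice was not tested, since the labels put all 4 in the same group.

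**Figure D3:**
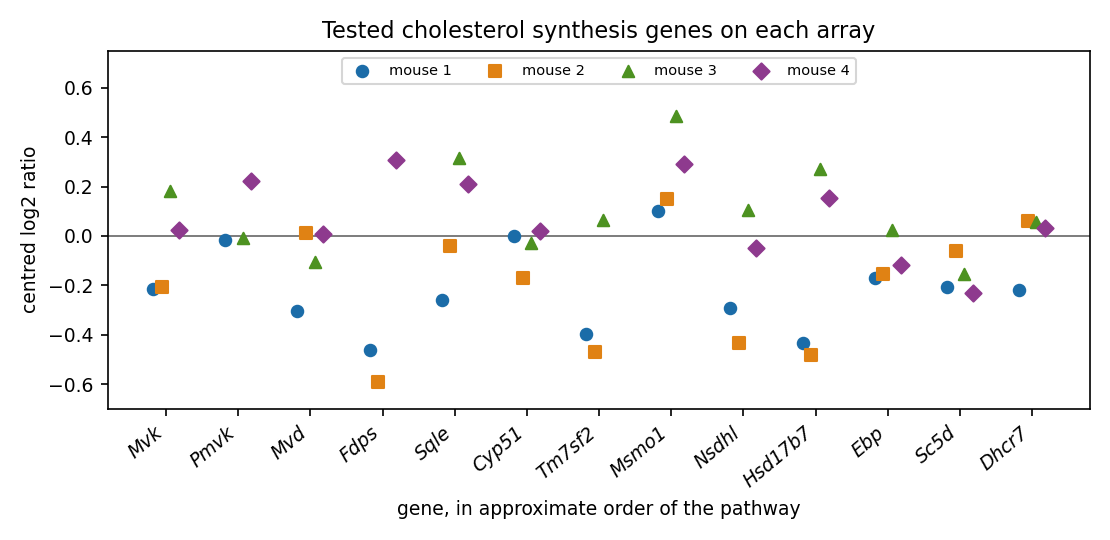
Centred log2 ratio (vertical axis) of the 13 tested cholesterol synthesis genes, ordered roughly along the pathway, with a symbol for each mouse. For several genes, among them Fdps, Tm7sf2, Nsdhl and Hsd17b7, mice 1 and 2 lie below the others with a value, and all values stay between -0.59 and 0.49.

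For 14 tested genes of fatty acid synthesis, elongation and desaturation, the median of the means was 0.17 against 0.0015 for all genes. Scd2 alone of them passed, or 7.14% against 12.5% of all genes. Of the others, 9 had a mean above 0 and 4 below. Fads3, a gene of the fatty acid desaturase cluster, had ratios of 0.21, 0.22 and 0.58 in mice 1, 2 and 4, with a mean of 0.34 ± 0.21 (SD, n = 3; limma, adjusted p = 0.115). Elovl5, an elongase gene for polyunsaturated chains, had 0.37 and 0.42 in mice 1 and 2 and 0.03 and 0.07 in mice 3 and 4 (limma, adjusted p = 0.166). Slc25a1 encodes the mitochondrial citrate carrier that supplies acetyl units, and was below 0 on all 4 arrays, at -0.23 ± 0.19 (SD, n = 4; limma, adjusted p = 0.148). Acss2, which makes acetyl-CoA from acetate, had a mean of 0.25 ± 0.29 (SD, n = 4) and, like Fasn, was below 0 in mouse 1 alone. The citrate-cleaving enzyme gene Acly had 1 value, 0.04 in mouse 1.

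Regulators of both routes gave no call: of 17 listed, 8 were tested and 0 passed limma, against 12.5% of all genes. An unadjusted limma p under 0.05 was found for 0 of the 8, against 2664 of all 8384 genes. With 8 genes tested, the counts are too small to set the regulators apart from the rest. Srebf2, the SREBP gene tied to cholesterol synthesis, had 0.08, -0.09, 0.50 and 0.49 in mice 1 to 4. It was thus high in mice 3 and 4 and near 0 in the others, with a mean of 0.24 ± 0.30 (SD, n = 4; limma, adjusted p = 0.230). Srebf1, the SREBP gene tied to fatty acid synthesis, averaged 0.02 ± 0.16 (SD, n = 4). It falls outside the rule for named genes and was added after its value was seen. Insig2, which retains SREBP precursors in the endoplasmic reticulum, and Nr1h3, a sterol-sensing receptor gene, had means of 0.07 and 0.06, and Mbtps1, which encodes an SREBP-cleaving protease, of -0.08. Medians of the 8 were 0.16 and 0.12 in mice 1 and 2 and -0.10 and -0.12 in mice 3 and 4.

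In the isoprenoid branch that starts from farnesyl diphosphate, 1 of 6 tested genes passed, against 12.5% of all genes. This was Fnta, the shared alpha subunit gene of the protein farnesyl and geranylgeranyl transferases, at 0.42, 0.33, 0.46 and 0.29 in mice 1 to 4. All values were above 0 within a narrow range, with a mean of 0.38 ± 0.08 (SD, n = 4; limma, adjusted p = 0.0250). The call was lost whichever mouse was left out, at limma adjusted p of 0.0568 to 0.0848. Pdss2, of ubiquinone synthesis, and Pggt1b, the geranylgeranyl transferase beta subunit gene, had means of 0.16 and 0.13 and did not pass. Rabggtb, of Rab geranylgeranylation, ranged from -0.90 in mouse 1 to 0.83 in mouse 3, and Ggps1, geranylgeranyl diphosphate synthase, averaged -0.04.

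Of 12 tested genes that move sterols and lipids into, through and out of cells, 2 passed above and 2 below 0, against 7.69% and 4.81% of all genes tested. Whether this share differs from that of the synthesis genes was not tested. Npc1, which exports cholesterol from lysosomes, had log2 ratios of 1.04, 0.86, 1.14 and 0.85 in mice 1 to 4. These were all high and close together, with a mean of 0.97 ± 0.14 (SD, n = 4; limma, adjusted p = 0.00653). Apoe, the apolipoprotein E gene, had 0.78, 0.35, 1.52 and 1.18, with a mean of 0.96 ± 0.51 (SD, n = 4; limma, adjusted p = 0.0334).

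Below 0 lay Scarb1, the gene of the high-density lipoprotein receptor, at -0.56, -1.16, -0.66 and -0.27, lowest in mouse 2 (mean -0.66 ± 0.37, SD, n = 4; limma, adjusted p = 0.0421). Abca1, a cholesterol exporter gene, was small but even at -0.32, -0.25, -0.35 and -0.24, with a mean of -0.29 ± 0.06 (SD, n = 4; limma, adjusted p = 0.0415). Scarb1 and Abca1 no longer passed with any mouse left out, nor did Apoe without mouse 1, 3 or 4; the highest limma adjusted p of these 3 genes was then 0.121. With the arrays of mice 1 and 2, and of mice 3 and 4, as random blocks, Npc1 alone of the 4 genes kept its call, and the limma adjusted p was 0.0562 for Apoe, 0.0903 for Abca1 and 0.0869 for Scarb1.

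Abcg1, a further sterol exporter gene, was above 0 on all 4 arrays at 0.57 ± 0.35 (SD, n = 4) and narrowly missed the threshold (limma, adjusted p = 0.0516). Cd36, a fatty acid and lipoprotein receptor gene, had 1.48, 1.03, -0.02 and 0.75, with mouse 3 apart from the rest (limma, adjusted p = 0.0763, and 0.0392 without mouse 3). Stard4, a cytosolic sterol carrier gene, had its lowest value of -1.48 in mouse 3 and -0.51 to -0.15 in the others (limma, adjusted p = 0.140). Lrp1, a lipoprotein receptor gene, averaged 0.14 ± 0.10 (SD, n = 3).

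Downstream of the fatty acids, 2 of 14 tested genes of glycerolipid synthesis (14.3%) passed, near the 12.5% of all genes. Both were above 0. Gpam encodes the mitochondrial acyltransferase that starts the making of glycerolipids from acyl-CoA. It had ratios of 0.54, 1.01, 1.22 and 1.01, lowest in mouse 1 as for Fasn, with a mean of 0.94 ± 0.29 (SD, n = 4; limma, adjusted p = 0.0125). Lpin2, a phosphatidate phosphatase gene, had a mean over its 2 probes of 0.67 ± 0.06 (SD, n = 4; limma, adjusted p = 0.00745). The probes disagreed in size: tested alone, they had means of 1.15 (limma, adjusted p = 0.00399 over probes) and 0.19 (adjusted p = 0.229). The acyltransferase genes Agpat3 and Agpat5, with means of -0.33 and 0.27, and the acyl-CoA synthetase genes Acsl3 and Acsl5, with -0.20 and 0.32, did not pass.

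**Figure D4:**
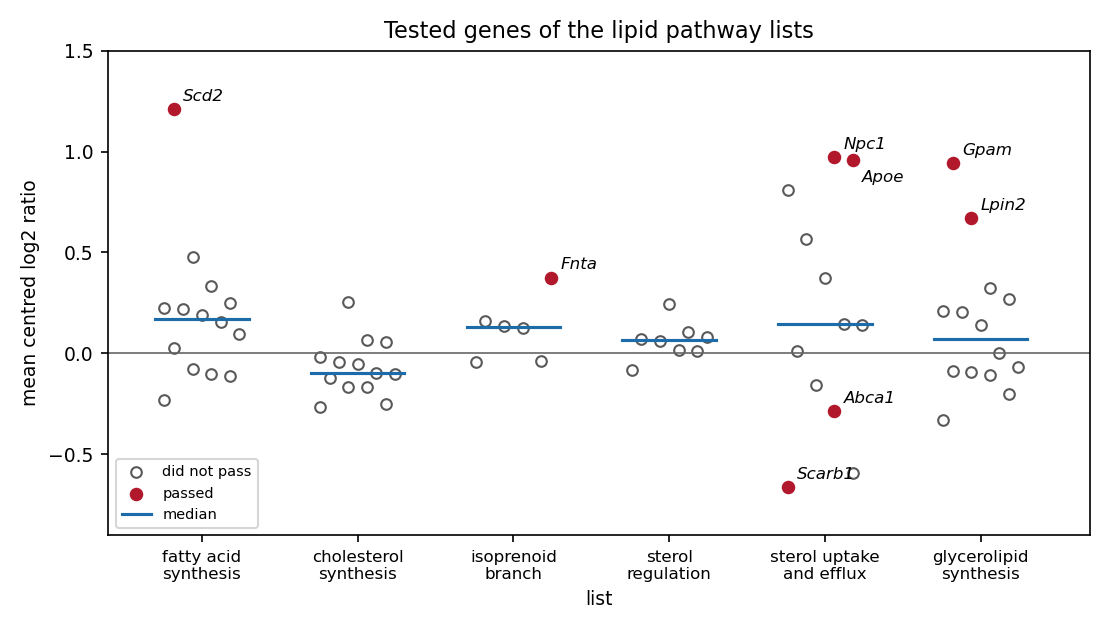
Mean centred log2 ratio (vertical axis) of each tested gene in the 6 lipid pathway lists; red points passed limma and are named, open points did not, and blue lines are medians. The 8 genes that passed lie in 4 of the lists, and none is in cholesterol synthesis or sterol regulation.

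Over the 6 lists together 8 of 67 tested genes, or 11.9%, passed, close to the 12.5% of all genes.

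By the distance between their values over the 4 arrays, among 6056 other genes with 4 values, Sftpa1, Pls3 and Stip1 were closest to Scd2, at 0.211, 0.260 and 0.274. They encode surfactant protein A, an actin-bundling plastin and a co-chaperone, and had means of 1.28, 1.22 and 1.27. Closest to Fasn were Rhou at 0.341, Acaa2 at 0.343 and Psmc1 at 0.368, of which Acaa2, a thiolase gene of fatty acid oxidation, passed (mean 0.52; limma, adjusted p = 0.0463). Its call was lost in 8 of 16 other settings, among them the random blocks and the absence of mouse 2, 3 or 4, at a limma adjusted p of up to 0.142. Closest to Scd1 were Lamb3, Septin2 and Tlcd3b, at 0.154, 0.154 and 0.169. The distance describes likeness over these 4 arrays only.

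Some markers of other cells of the tissue passed as well. Of 9 tested markers of alveolar type II cells, 1 passed above 0, against 7.69% of all genes. This was Sftpa1, at 1.08, 1.49, 1.53 and 1.04 in mice 1 to 4. It is the gene named above as closest to Scd2, by these same values. The other surfactant protein genes tested varied more: Sftpc had 1.32, -0.31 and 0.36 in mice 1, 2 and 4. Sftpd had -0.14, -0.19, 0.68 and 0.43 in mice 1 to 4. Only 3 of the 9, Sftpa1, Slc34a2 and Napsa, stayed above 0 in every mouse, whereas 46.7% of all genes held to a single side. All 9 means were above 0, against 4212 of all 8384 genes. The list medians were 0.09, 0.04, 0.72 and 0.36 in mice 1 to 4, so the list as a whole was not as even over mice as Scd2. Of 9 tested markers of fat cells, 4 passed below 0, against 4.81% of all genes: Gpd1 at -0.54, Plin4 at -0.79, Cidea at -2.53 and Adipoq at -1.59. With the random blocks of arrays all 4 of these calls were lost, at limma adjusted p values from 0.0505 for Plin4 to 0.0866 for Adipoq. Of the markers that did not pass, Ucp1 (-1.89), Car3 (-0.32) and Cidec (-0.16) had a mean below 0, and Lipe (0.13) and Pnpla2 (0.13) above it. The list medians of the fat cell markers were -0.61, -0.01, -0.79 and -0.49 in mice 1 to 4, closest to 0 in mouse 2. Of 9 tested macrophage markers, 5 had a mean above 0 and 4 below, with a median of 0.08. Siglecf (0.54), Mrc1 (0.74) and Mertk (0.71) passed above 0 and Plin2, a lipid droplet gene, below it (-0.82), against 7.69% and 4.81% of all genes. Among those that did not pass, Itgax (-0.31), Marco (-0.49) and Cd68 (-0.07) were below 0, and Pparg (0.08) and Msr1 (0.14) above it. Calls of Gpd1, Cidea, Adipoq and Plin2 were each lost without any of 3 of the mice and that of Siglecf without mouse 3 or 4. Mertk, which had no value in mouse 3, lost its call with the random blocks (limma, adjusted p = 0.0744). It also lost it in the fit without the array of mouse 3, on the same Mertk values (limma, adjusted p = 0.0626). That loss thus came from the change in the other genes fitted. The Mertk call was lost too without each of the 4 mice where 2 values sufficed. Where 2 values sufficed, Plin4 lost its call without mouse 1, 3 or 4 and Mrc1 without mouse 3 or 4. Plin2 was lost with the random blocks too (limma, adjusted p = 0.0797), whereas Siglecf and Mrc1 passed there. The part of these cell types in the values of the lipid synthesis genes was not tested.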

How the data were processed

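Each of the 4 arrays compares 1 treated mouse with the shared control pool. The authors deposited 1 log ratio per spot and array, read here as log2 from its signed range around 0; the sources used here do not give its base, its direction, the dyes or the correction and normalization steps, and signal over background could not be judged. Probes (17280 spots, 14723 listed, 1 with several symbols) were named through the platform annotation and checked by gene ID against RefSeq genes of GRCm38.p6 (14445 matched, 0 symbols changed). Arrays were centred on their medians, probes of a symbol averaged, and genes with at least 3 values tested against 0 with limma 3.58.1 (R 4.3.3; lmFit with an intercept, then eBayes). Two-sided p-values of all 8384 genes were adjusted by Benjamini-Hochberg, with a threshold of 0.05. The procedure was tested on simulated data with independent arrays, which cannot show how it behaves when arrays resemble each other as here. Other columns of per-sample values numbered 0.

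The members, lists, motifs and tests were chosen with earlier results of these data known. Named genes are the 8 members; pathway genes past the test and up to 4 more per list by p; up to 4 markers past the test per list; and the 3 nearest genes to the 3 members of smallest p. The 6 pathway and 4 marker lists hold 118 pathway genes, of which 97 had a probe. P-values weigh the mean of a gene against the spread between its arrays, which eBayes draws toward that of all genes. Each mouse had its own array, so spread between mice cannot be told from that of amplification and array. The arrays were treated as independent, except in the fit with a random block. Alternatives were no centring, the median of probes, single probes, values on all 4 or at least 2 arrays, arrays scaled to equal spread (normalizeMedianAbsValues), robust eBayes, a random block for resembling arrays, and leaving out each mouse.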

Additional observations from a re-analysis of the deposited data

Results flagged for a closer look

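Among 47 named genes with 4 values, 1 had a mouse far from the others: Septin2, named for its likeness to Scd1, had 0.64 in mouse 2 against -0.04 to 0.05 in the other mice. By chance about 1 in 20 genes would be marked in this way.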

How the results depend on the processing

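The counts and the genes with 4 values were recomputed under 16 alternatives, 8 of them without a mouse. Fdps and the other 9 named genes with 3 values could be fitted under 12. Those for the pathway and marker genes were added after seeing the data. Scd2, Npc1 and Lpin2 passed in all 16, Lpin2 at the level of single probes through 1 of its 2 probes only (the other at limma adjusted p = 0.229). Outside the pathway lists, Sftpa1, Pls3, Stip1 and Myl1 also passed in all 16, and Tnnc2 in all 12 of its settings. Scd2 kept a mean between 1.10 and 1.30 and a limma adjusted p of at most 0.0307. The number of members past the test was 1 to 2 without a mouse, the second being Fasn without mouse 1. Sqle and Scd1 changed the sign of their mean without mouse 3 and mouse 2, to -0.03 and -0.05, without passing in any setting. Without a mouse and with 3 values, all genes past limma numbered 277 to 537 and pathway genes 4 to 5; with at least 2 values they numbered 314, 548, 294 and 324 without mouse 1, 2, 3 and 4, and pathway genes 3 to 5. Fewer arrays and other genes were tested there. With the arrays of mice 1 and 2 and of mice 3 and 4 as random blocks, 402 genes passed (286 above and 116 below 0) and 4 pathway genes: Scd2, Npc1, Lpin2 and Gpam. Gpam was otherwise lost only without mouse 4 when 2 values sufficed (limma adjusted p = 0.0527). With at least 2 values Acaca could be fitted on its 2 arrays, at a mean of 0.22 (limma, adjusted p = 0.243). Of 872 single-gene values, 763 kept their side of the threshold, 101 lost a call, 8 gained one and 0 called values changed sign. No paired analysis was possible because there is 1 group. Dim probes could not be told from bright ones, so low signal may limit any single value.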

Other observations

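All 11 tested striated muscle markers had a negative mean, although 2 or 3 of them were above 0 in each of mice 2 to 4. Of these markers 4 passed below 0, against 4.81% of all genes: Tnnc2 (-4.90), Myl1 (-2.91), Hrc (-2.17) and Ldb3 (-1.67). The list medians of the muscle markers were -2.68, -0.84, -0.38 and -0.91 in mice 1 to 4, lowest in mouse 1. The calls of Hrc and Ldb3 were lost without some mice, at limma adjusted p up to 0.0816, and with the arrays of mice 1 and 2 and of mice 3 and 4 as random blocks, at 0.0588 and 0.0571. The part of such tissue in the lipid gene values was not tested.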
